A study of Mus musculus with 16 samples.

Results

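The genes described here encode receptors and adaptors by which the liver senses bacterial products, and their RNA was measured in whole livers of mice given vehicle, lean microbiota or obese microbiota. They are Nod1, Nod2, Ripk2, Tlr2, Tlr4, Tlr5, Cd14, Ly96, Lbp and Myd88, chosen by name, and the probes carrying one of these names numbered 16 of the 56605 on the array, for 10 of its 37074 gene names. All mice were conventional C57Bl/6 males (Conv, raised with their own gut microbiota), 6 weeks old at the start, on normal chow for 4 weeks and 10 weeks old by the labels. Conv + PBS mice (n = 6, mouse numbers 1 to 6) received reduced PBS as vehicle and are labelled as not transplanted, Conv + LM mice (n = 5, numbers 13 to 17) received caecal microbiota pooled from lean donors on normal chow, and Conv + OM(HFD) mice (n = 5, numbers 25, 26, 28, 29 and 30) received microbiota pooled from obese donors on a high-fat diet. By the study's methods the recipients were group-housed and no antibiotic preceded the gavage, so the transplanted bacteria met a resident microbiota. The labels give no cage, and cage and group cannot be told apart. The study also examined the faecal microbiota of recipients before and after transfer, which was not analysed here.

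Blood from the gut reaches the liver through the portal vein and carries fragments of bacteria with it. Lipopolysaccharide, from the outer membrane of Gram-negative bacteria, is bound in plasma by the product of Lbp, passed to CD14 and recognised by TLR4 together with its co-receptor MD-2, the product of Ly96. TLR2 recognises bacterial lipoproteins, TLR5 recognises flagellin, and these receptors signal through the adaptor MYD88. NOD1 and NOD2 are cytosolic sensors of peptidoglycan fragments and signal through the kinase RIPK2. Hepatocytes secrete LBP as an acute-phase protein, whereas CD14 and TLR2 are best known from Kupffer cells (the resident liver macrophages), monocytes and neutrophils.

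Each liver was hybridised to 1 one-colour array, and each level is the log2 brightness of a probe minus the 75th percentile of its array, so that a level of 0 is the brightness of that percentile. That percentile lay between brightness 223.1 and 323.7, and between 51.89% and 60.10% of the spots were well above background by the scanner software's own call. The arrays were on 2 slides, each of which held all 3 groups. Hepatocyte markers were detected in every liver, with a list mean between 8.68 and 9.08. Conv + PBS mouse 1 and Conv + OM(HFD) mouse 25 stood apart from the other 14 mice. Their mean level over 8 neutrophil markers was 0.16 and 0.21, against -3.16 to -2.04 in the others, and their mean over 14 Kupffer cell markers was 2.90 and 1.96, against 0.58 to 1.44. Differences of Cd14, Tlr2, Lbp and Tlr5 are therefore also given without them, as are counts of genes in each direction. Since whole liver was measured, fewer cells of a type and less RNA per cell cannot be told apart.

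The probe sequences matter for reading 2 of the genes, Ly96 and Tlr4. Ly96 had 2 probes, and the brighter, designed on NM_016923 (chr1:16699612-16699671, mm9, plus strand), held an alternating AC repeat of 31 bases. The dimmer, designed on NM_001159711 (chr1:16678610-16678669, plus strand), held none. Shown 5′ to 3′ are 30 bases of each 60-base probe, with the AC repeat in capitals, followed by the probes of the 3 genes whose levels were most like those of the brighter Ly96 probe.
Ly96, NM_016923 probe, bases 12 to 41: tgctgaatACACACACACACACACACACAC
Ly96, NM_001159711 probe, bases 1 to 30: tcgacgctgctttctcccatattgactgaa
Hexim2, chr11:103001094-103001153, plus strand, bases 4 to 33: cacacacgCACACACACACACACACACAtg
Lhx6, chr2:35937644-35937703, minus strand, bases 24 to 53: ttatttaaACACACACACACACACACACAC
Krt222, chr11:99095480-99095539, minus strand, bases 14 to 43: aaggttgtACACACACACACACACACACAC

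Tlr4 had 3 probes. The brightest was designed on the Ensembl transcript ENSMUST00000107365 (chr4:66591199-66591258, mm9, plus strand) and lay 87416 bases beyond the nearer of the others, which were designed on the RefSeq transcript NM_021297 (chr4:66503724-66503782 and chr4:66500344-66500403). The first 30 bases of the 2 Tlr4 probes that were detected in most livers are shown because no relation between their levels was detected.
Tlr4, ENSMUST00000107365 probe, bases 1 to 30: tcttccatagtttgtgcttcatgtccctgc
Tlr4, NM_021297 probe, bases 1 to 30: tgtgatagggctttaaatagttgagctaat
Which exon, intron or untranslated region each probe lies in was not looked up, since no annotation of this build was used here. For the same reason the brightest Tlr4 probe was not checked against the Tlr4 gene model, and whether it measures Tlr4 RNA was not tested.

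**Figure D1:**
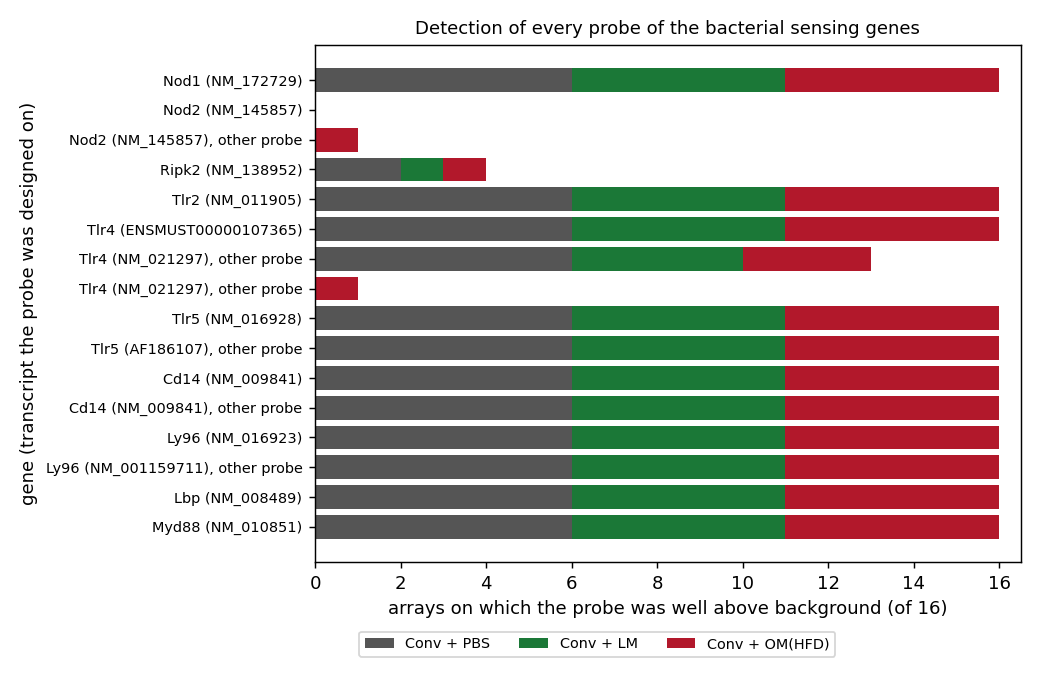
Number of the 16 arrays (x axis) on which each of the 16 probes (y axis, with the transcript it was designed on) was well above background, with bars stacked by group. 11 of the probes reached all 16 arrays, and neither Nod2 probe was well above background on more than 1 array.

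Detection separated the genes before any comparison of groups. Nod1, Tlr2, Tlr5, Cd14, Ly96, Lbp and Myd88 were well above background in all 16 livers on every probe they had, and Tlr4 was so on its brightest probe. The bar plot of detection by probe shows the remaining probes. Ripk2 (NM_138952) was well above background in 4 of 16 livers, namely Conv + PBS mice 1 and 2, Conv + LM mouse 17 and Conv + OM(HFD) mouse 25. The NM_021297 probes of Tlr4 were detected on 13 arrays and on 1 array. Nod2 was not well above background in any liver on the probe at chr8:91212170-91212224, and on the probe at chr8:91210529-91210588 it was so only in Conv + OM(HFD) mouse 25, at brightness 33.7 against 2.04 to 8.75 in the other 15 mice. Of the Tlr4 probes, the one detected on a single array was also detected in mouse 25 alone, at brightness 39.0 against 2.01 to 6.36. The 8 genes other than Nod2 and Ripk2 passed the filter of 5 arrays and entered the test with 20404 genes in all.

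**Figure D2:**
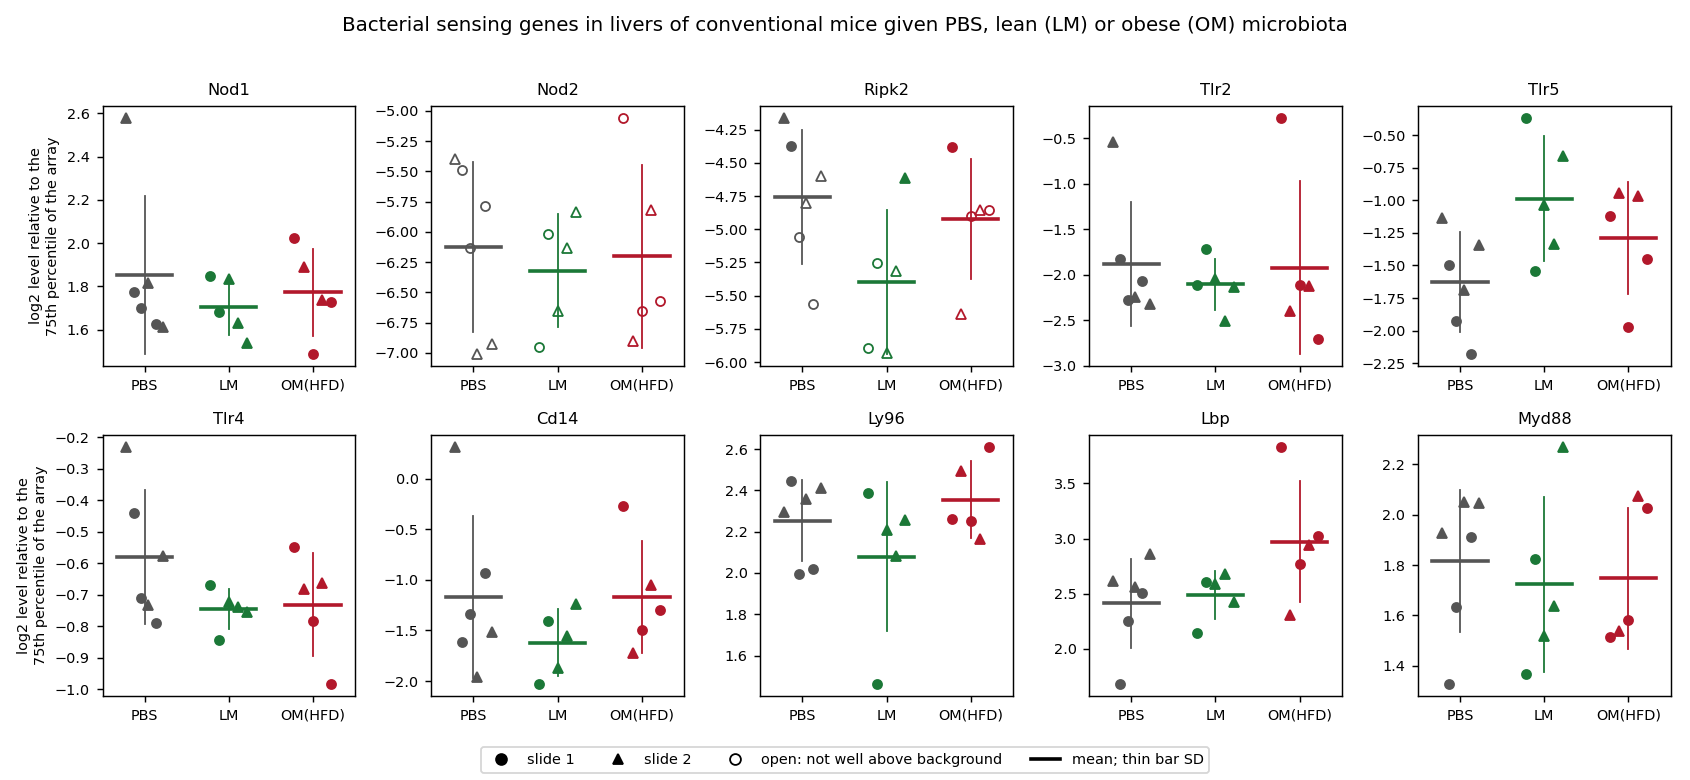
Log2 level relative to the 75th percentile of the array (y axis) of the 10 genes in each mouse, by group (x axis), with the probe that stands for the gene. Circles are slide 1 and triangles slide 2, open symbols are not well above background, thick bars are means and thin bars SD. Conv + PBS mouse 1 was the highest of its group for Nod1, Nod2, Ripk2, Tlr2, Tlr4, Tlr5 and Cd14, and Conv + OM(HFD) mouse 25 the highest of its group for Nod1, Nod2, Ripk2, Tlr2, Tlr4, Cd14 and Lbp, and no Nod2 value was well above background.

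The comparison of obese microbiota with vehicle asked whether the obese inoculum changed the liver's sensing genes. Lbp was the gene with the smallest p. It was 1.48-fold higher in Conv + OM(HFD) mice, and no gene differed after adjustment over all genes. Of the 8 tested genes, 4 were higher and 4 lower in Conv + OM(HFD) mice (6 and 2 without mice 1 and 25), with a median log2 difference of -0.02 against 0.00 over all genes tested, and only Lbp had an unadjusted limma p under 0.05, in a comparison where 3.23% of all genes did. By the exact permutation test 0 of the 8 had p under 0.05, against 3.22% of all genes, and 0 of the 8 had groups that did not overlap, against 0.235%.

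Lbp (NM_008489), the plasma carrier of lipopolysaccharide, had log2 levels of 3.83, 2.31, 2.77, 2.94 and 3.02 in Conv + OM(HFD) mice 25, 26, 28, 29 and 30. In Conv + PBS mice its levels ran from 1.68 in mouse 2 to 2.86 in mouse 6 with a median of 2.53, and in Conv + LM mice they were 2.14, 2.61, 2.59, 2.68 and 2.42. The groups overlapped, with 4 of 5 Conv + OM(HFD) mice above the Conv + PBS median and mouse 26 below it. The log2 difference from Conv + PBS was 0.56 (SE 0.24, limma p = 0.0310, adjusted p = 0.9999, exact permutation p = 0.0758). It was 1.06 within slide 1 and -0.05 within slide 2. Without mouse 25 the difference was 0.35, and without mice 1 and 25 it was 0.39. Without Conv + PBS mouse 2, the lowest, it was 0.42, and without Conv + PBS mouse 3 or Conv + OM(HFD) mouse 30 it was 0.53 and 0.55. In each of these 5 cases the limma p was above 0.05. Mouse 25 also had the highest mean of the 21 acute-phase genes, 6.43 against 4.47 to 5.48 in the other 15 mice.

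The lipopolysaccharide receptor genes did not pass the test. Cd14 had levels of -0.27, -1.72, -1.49, -1.05 and -1.30 in Conv + OM(HFD) mice 25, 26, 28, 29 and 30, and from -1.96 to 0.31 with a median of -1.42 in Conv + PBS mice. The mean difference was 0.00 (95% interval -0.73 to 0.74), with the highest liver of each group, mice 1 and 25, far above the rest. Without Conv + PBS mouse 1 it became 0.30, without Conv + OM(HFD) mouse 25 it became -0.22, and without both it was 0.08. It was 0.27 within slide 1 and -0.34 within slide 2. Tlr4 had levels of -0.55, -0.68, -0.78, -0.66 and -0.98 on its brightest probe in Conv + OM(HFD) mice and from -0.79 to -0.23 in Conv + PBS mice, which overlapped. The log2 difference was -0.15 on that probe (95% interval -0.37 to 0.07, exact permutation p = 0.238, and -0.08 without Conv + PBS mouse 1) and 0.17 on the RefSeq probe detected in 13 livers (exact permutation p = 0.677). No relation between the 2 probes was detected across the 16 mice after group means were removed (Pearson's r = 0.02, permutation p = 0.957, Spearman's rho = 0.01, permutation p = 0.980). Without Conv + PBS mice 1 and 2, the farthest from the median, r was 0.06. Among 4 such pairs of probes of 1 gene, the Benjamini-Hochberg adjusted p for Tlr4 was 0.957.

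Ly96 differed by 0.10 on its brighter probe (95% interval -0.22 to 0.42, exact permutation p = 0.396) and by -0.09 on the probe without the repeat (exact permutation p = 0.587). The levels of the brighter probe were 2.26, 2.49, 2.25, 2.17 and 2.61 in Conv + OM(HFD) mice and 1.99 to 2.45 in Conv + PBS mice, and those of the dimmer probe were -2.68, -2.93, -2.42, -2.55 and -2.20 against -2.83 to -2.14. No relation between the 2 Ly96 probes was detected across the 16 mice (r = 0.03, permutation p = 0.947, adjusted p = 0.957, rho = -0.03, permutation p = 0.931). Without the farthest mice, Conv + LM mouse 14 and Conv + OM(HFD) mouse 30, r was -0.30. By contrast, the 2 Cd14 probes moved together (r = 0.94, permutation p = 5e-05, adjusted p = 0.0002, rho = 0.92, and r = 0.79 without mice 1 and 25).

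The brighter Ly96 probe followed other probes that hold an AC repeat. A run of 16 alternating bases (ACACACACACACACAC, on either strand) was in 107 probes of the array, 0.189% of all. This search was made after the likeness to Hexim2, Lhx6 and Krt222 was seen. Among the 17083 genes well above background on all arrays, 97 (0.568%) had a probe with the repeat in either reading, 31 of them as AC. The 20 genes most like the Ly96 probe all had it as AC, as did 29 of the nearest 100. Its r was 0.99 with Hexim2, which encodes a regulator of transcription elongation, 0.98 with Lhx6, a homeobox factor, and 0.98 with Krt222, a keratin-related gene. The mean level of the 36 other probes with the AC repeat followed the brighter Ly96 probe over the 16 mice after group means were removed (r = 0.98, rho = 0.98). This is given as a description with no p, since the search was prompted by the same values. With Hexim2, Lhx6 and Krt222 taken out, the mean of the other 33 probes had the same r of 0.98. The value of r was 0.99 within slide 1 and 0.96 within slide 2, and 0.97 without Conv + LM mouse 14 and Conv + PBS mouse 3. The dimmer Ly96 probe had r = 0.02 with the mean of the 36 probes (rho = -0.04), and -0.24 without those 2 mice. How much of the brighter probe's signal came from Ly96 RNA was not tested.

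**Figure D3:**
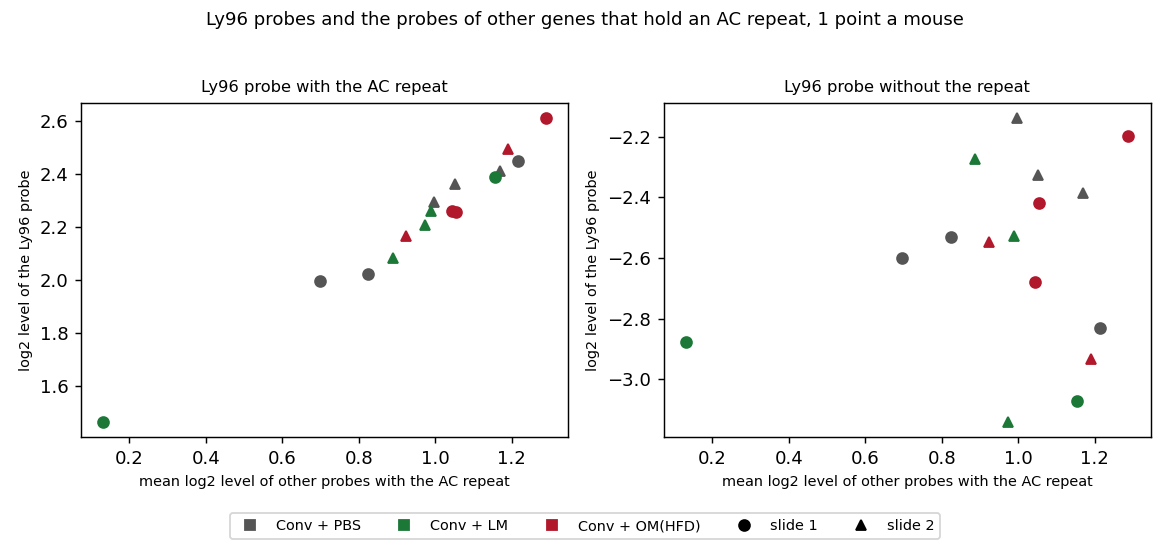
Log2 level of the Ly96 probe with the AC repeat (left, y axis) and of the Ly96 probe without it (right, y axis) against the mean log2 level of 36 probes of other genes that hold the repeat (x axis), 1 point a mouse, coloured by group, with circles for slide 1 and triangles for slide 2. The left points lie along a line (r = 0.98) and the right points do not (r = 0.02).

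The remaining receptors and adaptors were close to the vehicle level or varied too much to tell. Tlr5, the flagellin receptor, was 0.34 higher in Conv + OM(HFD) mice on the NM_016928 probe (SE 0.24, exact permutation p = 0.195) and 0.07 higher on the AF186107 probe (exact permutation p = 0.881). Without Conv + OM(HFD) mouse 28, the lowest, the first of these was 0.51, with a limma p under 0.05, and without mice 1 and 25 it was 0.39. Tlr2, the lipoprotein receptor, had levels of -0.27, -2.39, -2.11, -2.12 and -2.71 in Conv + OM(HFD) mice and from -2.32 to -0.55 with a median of -2.16 in Conv + PBS mice, so that 1 liver in each group lay far above the others. Its mean difference was -0.04 (95% interval -0.87 to 0.79), and -0.18 without mice 1 and 25. It was 0.36 within slide 1 and -0.55 within slide 2. Nod1, the peptidoglycan sensor detected in every liver, differed by -0.08 (95% interval -0.41 to 0.25), and Myd88, the shared adaptor, by -0.07 (95% interval -0.44 to 0.31). Ripk2, measured above background in 2 Conv + PBS livers and 1 Conv + OM(HFD) liver, differed by -0.17 in a fit without the filter (exact permutation p = 0.554, and from -0.33 to 0.01 when each mouse was left out), at 0.29 within slide 1 and -0.72 within slide 2. The differences of Nod1, Ly96 and Myd88 also had opposite signs within the 2 slides, between -0.20 and 0.22. No fold is given for Nod2, which was well above background in no Conv + PBS liver and, on 1 of its probes, in 1 Conv + OM(HFD) liver.

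**Figure D4:**
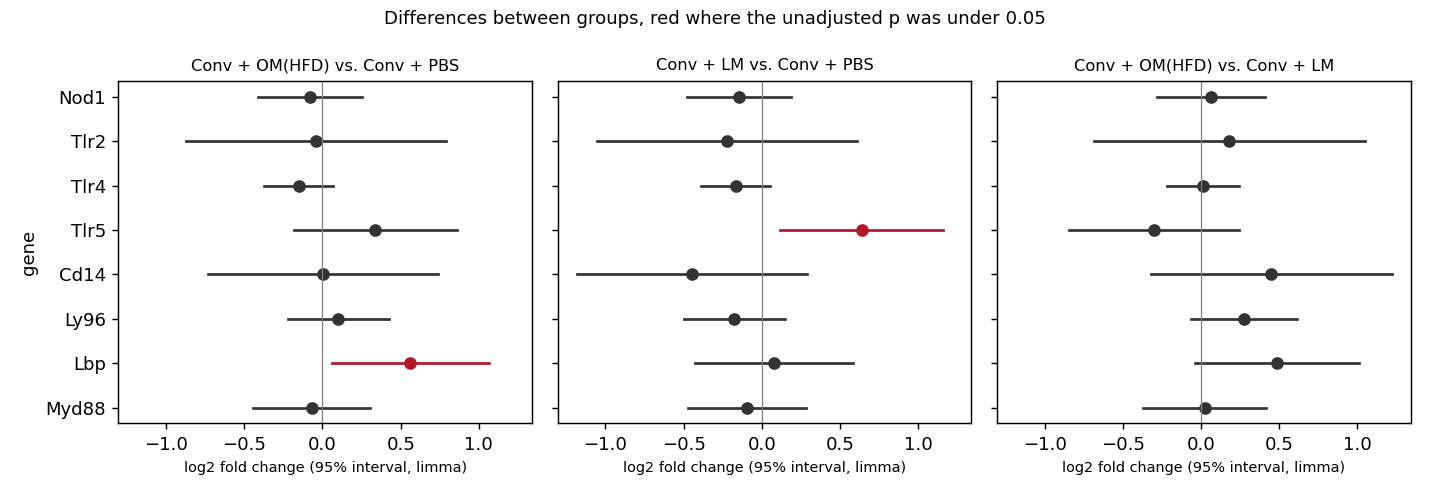
Log2 fold change with its 95% interval from limma (x axis) of the 8 genes that passed the filter (y axis), in the 3 comparisons. Lbp in Conv + OM(HFD) against Conv + PBS and Tlr5 in Conv + LM against Conv + PBS are in red, with intervals of 0.06 to 1.07 and 0.12 to 1.16.

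The comparison of lean microbiota with vehicle showed higher Tlr5, by 1.56-fold, and the direction was the same on both Tlr5 probes. Of the 8 genes tested, 2 were higher and 6 lower in Conv + LM mice. Their median log2 difference was -0.16, against -0.01 over all genes, and without mice 1 and 25 the 8 genes divided into 4 higher and 4 lower. Only Tlr5 had p under 0.05, by limma (3.94% of all genes did) and by the exact permutation test (3.99% did), and none had groups that did not overlap (0.279%). No gene on the array passed after adjustment in this comparison, nor in the other two.

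Tlr5 (NM_016928 probe, chr1:184905770-184905829, mm9) had log2 levels of -0.37, -1.54, -1.04, -1.34 and -0.66 in Conv + LM mice 13 to 17. In Conv + PBS mice they ran from -2.18 to -1.14 with a median of -1.59, and in Conv + OM(HFD) mice they were -1.12, -0.95, -1.97, -0.96 and -1.45. All 5 Conv + LM mice were above the Conv + PBS median, although mice 14 and 16 lay within the Conv + PBS range. The log2 difference was 0.64 (SE 0.24, limma p = 0.0194, adjusted p = 0.9968, exact permutation p = 0.0411). It was 0.91 within slide 1 and 0.38 within slide 2. Without Conv + LM mouse 13 it was 0.48 and without mouse 17 it was 0.56, and in both cases the limma p was above 0.05. Without mice 1 and 25 it was 0.74, with a limma p under 0.05. On the AF186107 probe (chr1:184906201-184906260) the levels were -1.78, -2.60, -1.39, -2.05 and -1.57 in Conv + LM mice and -3.37 to -1.83 in Conv + PBS mice, a difference of 0.65 (SE 0.32 with every probe fitted on its own, exact permutation p = 0.126). The 2 Tlr5 probes were related at r = 0.50 (permutation p = 0.0559, adjusted p = 0.112, rho = 0.47, permutation p = 0.0712), and at r = 0.42 without Conv + LM mouse 13 and Conv + PBS mouse 5.

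Ripk2, the kinase downstream of NOD1 and NOD2, had levels of -5.89, -5.25, -5.93, -5.31 and -4.61 in Conv + LM mice and from -5.56 to -4.16 in Conv + PBS mice. The difference was -0.64 in the fit without the filter (SE 0.29, limma p = 0.0439, adjusted p = 0.9985, exact permutation p = 0.0823), a fit in which 3.12% of all gene names had p under 0.05. Only 1 Conv + LM liver and 2 Conv + PBS livers had Ripk2 well above background, so most of these values lay below the scanner software's detection call. With normexp background correction the difference was -0.06. Cd14 had levels of -2.03, -1.41, -1.87, -1.55 and -1.23 in Conv + LM mice and was 0.45 lower than in Conv + PBS mice (95% interval -1.18 to 0.29, exact permutation p = 0.303), and without Conv + PBS mouse 1 the difference was -0.15. On the brightest Tlr4 probe the levels were -0.67, -0.84, -0.72, -0.74 and -0.75 in Conv + LM mice, with a difference of -0.17 (exact permutation p = 0.132), and -0.10 without Conv + PBS mouse 1. On the RefSeq probe they were -4.95, -3.72, -3.52, -3.92 and -4.09 against -4.19 to -3.31 in Conv + PBS mice, a difference of -0.20 (exact permutation p = 0.511), and the groups overlapped on both probes. Differences of Nod1, Tlr2, Ly96, Lbp and Myd88 lay between -0.22 and 0.08 on the probe that stands for each gene, with a smallest exact permutation p of 0.377, for Ly96, which differed by -0.17, and by -0.02 without Conv + LM mouse 14. On the Ly96 probe without the repeat the difference was -0.31 (exact permutation p = 0.134). Tlr2 differed by 0.05 and Lbp by 0.12 without mice 1 and 25. Within slides 1 and 2 the differences were 0.14 and -0.52 for Tlr2, 0.06 and -0.34 for Nod1 and 0.23 and -0.11 for Lbp.

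The obese and lean inocula were compared directly, since a gene past the threshold in one comparison with vehicle and not in the other is not shown to differ between them. Of the 8 genes tested, 7 had the higher mean in Conv + OM(HFD) mice (5 without mice 1 and 25), and the median log2 difference was 0.12 against 0.01 over all genes. None had p under 0.05 by limma (2.7% of all genes did) or by the exact permutation test (3.1%), and none had groups that did not overlap (0.456%). Lbp was 0.49 higher (SE 0.25, limma p = 0.0683, exact permutation p = 0.0873). The difference was 0.83 within slide 1 and 0.06 within slide 2. It was 0.65 without Conv + OM(HFD) mouse 26, with a limma p under 0.05, and 0.27 without mouse 25. Leaving out Conv + PBS mouse 2, which enters only the shared estimate of spread, also took the limma p under 0.05. Cd14 was 0.45 higher (95% interval -0.32 to 1.22), and 0.23 without mouse 25. It was 0.70 within slide 1 and 0.16 within slide 2. Tlr5 was 0.30 lower on the NM_016928 probe (95% interval -0.85 to 0.24) and 0.57 lower on the AF186107 probe (exact permutation p = 0.0556). On the first of these the difference was -0.56 within slide 1 and 0.06 within slide 2, and -0.34 without mice 1 and 25. It was -0.13 without Conv + OM(HFD) mouse 28 and -0.15 without Conv + LM mouse 13. Ly96 was 0.28 higher on the probe with the repeat (exact permutation p = 0.151) and 0.22 higher on the other (exact permutation p = 0.302). The first of these ran from 0.12 without Conv + LM mouse 14 to 0.35 without Conv + LM mouse 13, the only fit of those leaving out 1 mouse with a limma p under 0.05. Ripk2 was well above background in only 1 of 5 livers of each group, so that its difference of 0.48 in the fit without the filter (exact permutation p = 0.151) is mostly one between values below the detection call. It was 0.34 without Conv + OM(HFD) mouse 25, and 0.67 and 0.65 without Conv + LM mouse 17 or Conv + OM(HFD) mouse 26, these last with a limma p under 0.05. It was 0.86 within slide 1 and 0.04 within slide 2. The 36 probes of other genes with the AC repeat had means of 0.83 ± 0.40 (SD, n = 5) in Conv + LM and 0.99 ± 0.20 (SD, n = 6) in Conv + PBS mice, and a mean of 1.1 (SD 0.14, n = 5) in Conv + OM(HFD) mice. Nod1, Tlr2, Tlr4 on its brightest probe and Myd88 differed by 0.01 to 0.18, with exact permutation p from 0.563 to 0.929, and the RefSeq probe of Tlr4 differed by 0.37 (exact permutation p = 0.460). Their within-slide differences lay between -0.03 and 0.22 and were of opposite sign in each, and Tlr2 differed by -0.23 without mice 1 and 25.

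Other genes of these pathways were measured from lists chosen by function. Among 16 further Toll-like receptors and co-receptors, 17 tested adaptors and kinases, 20 tested genes of the NOD pathway and inflammasome, 8 of peptidoglycan handling, 7 of lipopolysaccharide handling and 9 induced cytokines and chemokines, 0 had an unadjusted limma p under 0.05 in any of the 3 comparisons. The share of all genes was 3.23% for obese microbiota against vehicle, 3.94% for lean microbiota against vehicle and 2.7% between the inocula. Without mice 1 and 25, 3.15% of all genes passed against vehicle under obese and 4.85% under lean microbiota, and 3.72% between the inocula. In that setting a few of the listed genes passed, among them Tlr1, higher under either inoculum than under vehicle, and Il1b, Ccl2 and Cxcl9, the last 3 lower under obese than under lean microbiota (names chosen after their values were seen). Of 15 genes for NF-kB subunits and inhibitors, 14 had a higher mean under obese microbiota than under vehicle and 0 passed the test. Without mice 1 and 25 the number higher was 9. The median of that list was 0.08, against 0.00 over all genes. In the same comparison, the mean was higher in 5 of the 16 further Toll-like receptors and co-receptors, 11 of the 17 adaptors and kinases and 7 of the 20 NOD pathway genes. For peptidoglycan handling, lipopolysaccharide handling and cytokines the numbers were 3 of 8, 1 of 7 and 4 of 9. Without mice 1 and 25 these numbers were 5, 9, 10, 4, 1 and 3. Rel, which encodes the c-Rel subunit, was 0.33 higher under obese than under lean microbiota (SE 0.13, limma adjusted p = 0.9995, exact permutation p = 0.0317). It was the only gene of the NF-kB list with an unadjusted limma p under 0.05, which held in 13 of the 16 fits that left out 1 mouse. Against vehicle, Rel was 0.09 higher under obese microbiota and 0.24 lower under lean microbiota. Between the inocula, 12 of the 15 NF-kB genes had the higher mean under obese microbiota. Without mice 1 and 25 the number was 6, and 1 gene passed as higher and 1 as lower.

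Acute-phase genes, which hepatocytes induce in inflammation as they do Lbp, had a higher mean under obese microbiota than under vehicle in 20 of 21 cases, with a median log2 difference of 0.23. An unadjusted limma p under 0.05 was reached by 3 of them, against the 3.23% of all genes. They were Cp, the copper carrier ceruloplasmin (0.26, SE 0.12, exact permutation p = 0.00216, the smallest possible), Fga, a fibrinogen chain (0.32, SE 0.14, exact permutation p = 0.0411), and Itih3, an inter-alpha-trypsin inhibitor heavy chain (0.30, SE 0.14, exact permutation p = 0.0736). The limma adjusted p of each was 0.9999, and the unadjusted p stayed under 0.05 in 6, 12 and 4 of the 16 fits that left out 1 mouse, in which the differences fell as low as 0.12, 0.21 and 0.17. Without mice 1 and 25 they were 0.13, 0.22 and 0.21, and 18 of the 21 had the higher mean and 0 passed. The list mean was 5.21 ± 0.72 (SD, n = 5) in Conv + OM(HFD), 4.88 ± 0.34 (SD, n = 6) in Conv + PBS and 4.83 ± 0.09 (SD, n = 5) in Conv + LM mice, with mouse 25 at 6.43 and the other 4 Conv + OM(HFD) mice between 4.53 and 5.13. In Conv + LM against Conv + PBS mice 10 of the 21 were higher and 0 passed, or 12 without mice 1 and 25, when Apcs, which encodes serum amyloid P, passed as higher against 4.85% of all genes.

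Markers of the cells that carry these receptors were compared between groups with and without mice 1 and 25. Those 2 livers were set apart by their high Kupffer cell and neutrophil means, so their high values there are no separate result. Of 14 Kupffer cell markers 13 had a lower mean under lean microbiota than under vehicle (12 without mice 1 and 25) and 0 passed. Under obese microbiota 12 of the 14 had a lower mean than under vehicle, or 8 without those mice. Slc40a1, the iron exporter ferroportin, was 0.33 higher (limma adjusted p = 0.9999, exact permutation p = 0.0455), with an unadjusted limma p under 0.05 in 13 of the 16 fits. It alone of the 14 passed, in a comparison where 3.23% of all genes did. The Kupffer list mean ran from 0.81 to 2.90 in Conv + PBS, 0.58 to 1.16 in Conv + LM and 0.81 to 1.96 in Conv + OM(HFD) mice. Of 11 neutrophil markers 8 were tested. All 8 had a lower mean under lean microbiota than under vehicle, or 5 without mice 1 and 25. Mmp8, a neutrophil collagenase, was 1.23 lower (exact permutation p = 0.0281), and alone of the 8 had an unadjusted limma p under 0.05, against 3.94% of all genes. That held in 5 of the 16 fits, and Mmp8 did not pass without those mice. All 5 monocyte markers tested had a lower mean under lean microbiota than under vehicle, or 3 without mice 1 and 25, and 0 passed. Under obese against lean microbiota, where Cd14 was 0.45 higher, 14 of 14 Kupffer cell markers had the higher mean (12 without mice 1 and 25), as had 8 of 8 neutrophil markers with and without those mice, and 0 of either list passed. The part of these cells in the differences of Cd14 and Tlr2 was not tested.

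In the other cell types, 3 of 9 stellate cell markers were lower under obese microbiota than under vehicle at an unadjusted limma p under 0.05. Over all genes the share was 3.23%. Without mice 1 and 25 there were 4, namely Lrat, Dcn, Reln and Hgf, against 3.15% of all genes, and Lrat also passed as lower under lean microbiota, where 4.85% of all genes passed. Lrat, which esterifies retinol for storage, was 0.63 lower (SE 0.14, limma adjusted p = 0.9999, exact permutation p = 0.00649), and its unadjusted limma p stayed under 0.05 in all 16 fits that left out 1 mouse. It was also 0.38 lower than under lean microbiota (exact permutation p = 0.0238, 14 of 16 fits). Colec11, a lectin of innate immunity, was 0.27 lower (9 of 16 fits), and Dcn, the matrix proteoglycan decorin, 0.26 lower (11 of 16 fits). Of the 9 stellate markers 2 had a higher mean, or 1 without mice 1 and 25. Among 9 markers of sinusoidal endothelium 7 had a lower mean and 1 passed, the lectin gene Clec4g, which was 0.48 lower (exact permutation p = 0.0130, 15 of 16 fits), and 0.33 lower without mice 1 and 25, where it did not pass and 8 of the 9 had a lower mean. With those mice left out, 8 of the 9 were also lower under lean microbiota than under vehicle, and Clec4g and Fcgr2b, an inhibitory Fc receptor, passed there, although 0 did in all mice. Among 8 lymphocyte markers tested 3 had a higher and 5 a lower mean (4 and 4 without mice 1 and 25), and Cd3g, a chain of the T cell receptor complex, was 0.46 lower (exact permutation p = 0.0216, 16 of 16 fits). Among 6 bile duct markers 2 had a higher mean, by up to 0.47, and 4 a lower one, with and without mice 1 and 25, and Cftr, a chloride channel above background on 6 arrays, was 0.76 lower (exact permutation p = 0.0693, 9 of 16 fits, with differences from -0.96 to -0.37). Of 9 hepatocyte markers 0 passed in any comparison. All 9 had a higher mean under obese microbiota than under vehicle, with a median difference of 0.08, or 8 without mice 1 and 25. Against lean microbiota 8 of the 9 had the higher mean under obese microbiota, with and without those mice. Under lean microbiota 4 had a higher mean than under vehicle, with and without them.

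Across mice, the levels of these genes were set against each other and against the means of 4 lists, after group means were removed. This was done for the 8 genes whose brightest probe was well above background in all livers. For Tlr4 that was the probe not checked against the gene model. Of the 60 relations computed, 28 between the genes and 32 with lists, 1 had an adjusted permutation p under 0.05, by rank 0 did, and with quantile normalization of the arrays 6 did. Cd14 was related to the mean of the Kupffer cell markers (r = 0.93, permutation p = 0.00026, adjusted p = 0.0156, rho = 0.79, adjusted p = 0.0612). It was 0.88 within slide 1 and 0.95 within slide 2. Without Conv + PBS mouse 1 and Conv + OM(HFD) mouse 25, r was 0.69 (permutation p = 0.0122, adjusted p = 0.456), so the adjusted call was lost without those 2 mice while the direction was kept.

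The relations of Tlr2 and Cd14 with lists depended on those livers to different degrees. Tlr2 with the Kupffer cell markers had r = 0.84 (permutation p = 0.00176, adjusted p = 0.0528, rho = 0.68, adjusted p = 0.0991) and r = 0.51 without mice 1 and 25. Tlr2 with the hepatocyte markers had r = -0.60 (permutation p = 0.0232, adjusted p = 0.0928, rho = -0.65, adjusted p = 0.0991) and r = -0.57 without them. Tlr2 with the neutrophil markers had r = 0.86 (permutation p = 0.0217, adjusted p = 0.0928, rho = 0.51, adjusted p = 0.235) and r = -0.13 without them. Tlr2 with the acute-phase mean had r = 0.85 (permutation p = 0.0136, adjusted p = 0.0912, rho = 0.61, adjusted p = 0.195) and r = 0.06 without them. Cd14 with the neutrophil markers had r = 0.79 (permutation p = 0.0181, adjusted p = 0.0919, rho = 0.46, adjusted p = 0.277) and r = -0.03 without them, and with the acute-phase mean it had r = 0.74 (permutation p = 0.00473, adjusted p = 0.0613, rho = 0.58, adjusted p = 0.195) and r = 0.34.

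The largest relations of Tlr2 with other receptor genes were smaller without those livers. Tlr2 with Cd14 had r = 0.78 (permutation p = 0.0125, adjusted p = 0.0912, rho = 0.46, adjusted p = 0.277) and r = 0.11 without mice 1 and 25. Nod1 with Tlr2 had r = 0.70 (permutation p = 0.0184, adjusted p = 0.0919, rho = 0.48, adjusted p = 0.235) and r = -0.02 without them. Tlr2 with the brightest Tlr4 probe, for which no relation to the RefSeq probe was detected, had r = 0.71 (permutation p = 0.00489, adjusted p = 0.0613, rho = 0.53, adjusted p = 0.226) and r = 0.34 without them.

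Lbp followed the acute-phase mean with r = 0.80 (permutation p = 0.00613, adjusted p = 0.0613, rho = 0.65, adjusted p = 0.136). The relation was 0.87 within slide 1 and 0.20 within slide 2, and 0.43 without Conv + OM(HFD) mouse 25 and Conv + PBS mouse 2. Tlr4, on its brightest probe, and Tlr5 had r = 0.65 (permutation p = 0.00515, adjusted p = 0.0613, rho = 0.69, adjusted p = 0.0991), which was 0.60 without Conv + PBS mice 1 and 2.

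**Figure D5:**
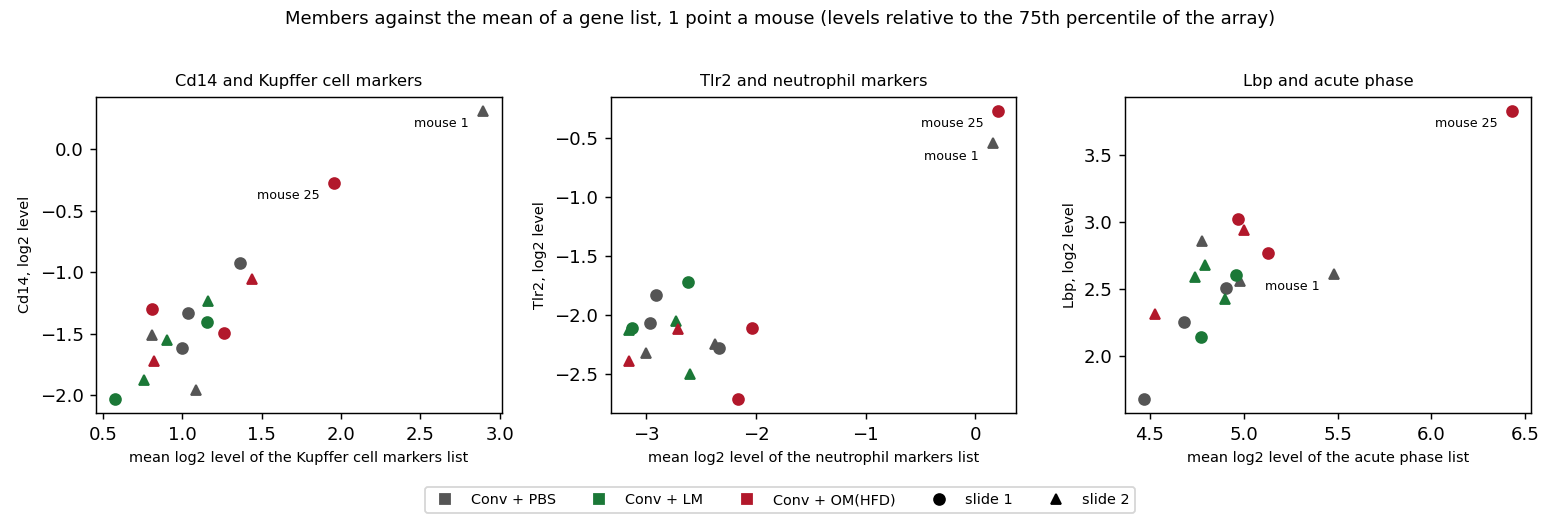
Log2 level of Cd14, Tlr2 and Lbp (y axes) against the mean log2 level of the Kupffer cell, neutrophil and acute-phase lists (x axes), 1 point a mouse, coloured by group, with circles for slide 1 and triangles for slide 2. Mice 1 and 25 lie at the upper right for Cd14 and Tlr2, and mouse 25 alone for Lbp.

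The genes whose levels were most like each gene over the 16 mice, among 17083 compared and with group means removed, are given as a description. For Cd14 they were Ppp1r18 (r = 0.96), Pira11 (r = 0.95) and Adgre1 (r = 0.94), the last of which encodes a surface receptor that marks macrophages, and for Tlr2 they were a transcript named NAP111445-1 (r = 0.97), Rims3 (r = 0.96) and Sirpa (r = 0.96), a receptor of myeloid cells. For Lbp they included Pip5k1a (r = 0.94) and Mt1 (r = 0.92), a metallothionein. For Nod1 they were Gm6658 (r = 0.94), Irgm2 (r = 0.93), an interferon-inducible GTPase, and Ift81 (r = 0.93). For Myd88 they were Gnl3 (r = 0.95), Adck2 (r = 0.92) and Zfp598 (r = 0.92). Tlr5 had Cuedc2 (r = 0.82), BC004004 (r = 0.82) and BC048403 (r = 0.81) nearest, and the brightest Tlr4 probe had Tns4, Rab19 and Tiam2 (r = 0.86 each). The nearest genes of Cd14 had r of 0.79 to 0.83 without mice 1 and 25, those of Tlr2 0.73 to 0.87 and those of Nod1 0.64 to 0.835. Without the 2 mice farthest from the median on the gene itself, r was 0.62 to 0.80 for Tlr4, 0.71 to 0.83 for Tlr5 and 0.84 to 0.90 for Myd88. For Lbp it was 0.82 with Pip5k1a and 0.81 with Mt1.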

How the data were processed

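The deposited scanner files held intensity values per spot, made by the authors with Agilent Feature Extraction 10.10.1.1 per the labels' processing notes, from 16 livers, 1 array each. The authors' own table was also deposited, on the log2 scale. Compared with the scanner values, it was the median spot brightness after quantile normalization, and it served as an alternative. Probe positions are those of the scanner files (mm9). The array's design names matched current RefSeq symbols for all 10 genes.

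From the background-subtracted intensity, log2 was taken, each array's 75th percentile over non-control spots was subtracted and spots of a probe were averaged. A probe well above background on at least 5 arrays was kept and the brightest stood for its gene. Groups came from the sample labels. They were compared with limma 3.58.1 (R 4.3.3) in 1 fit of all 16 mice, with Benjamini-Hochberg adjustment over 20404 genes, and with two-sided exact permutation tests, whose smallest p is 0.00216 for 5 against 6 mice and 0.00794 for 5 against 5. Relations used 100000 permutations within groups. The fit was tested on simulated data. Genes named were the 10 members, the 3 genes most like each member detected on all arrays, and list genes with p under 0.05, at most 4 a list. A gene that this rule names is not reported here. The members and lists were chosen with earlier results of these data known. Alternatives covered background correction, normalization, filter, probe, slide, array weights, test and leaving out each mouse. The number of arrays limits the precision. No array had a saturated spot among the non-control spots.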

Additional observations from a re-analysis of the deposited data

Results flagged for a closer look

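In 36 groups of 5 or 6 mice (8 genes and 4 list means in each of 3 groups), 5 values, from 2 mice, lay apart from their group by the gap to the nearest mouse relative to the range. Chance sets apart about 1 in 20 groups. Conv + PBS mouse 1 was high for Nod1 (log2 level 2.58), Tlr2 (-0.55), the Kupffer cell marker mean (2.90) and the neutrophil marker mean (0.16). Conv + OM(HFD) mouse 25 was high for Tlr2 (-0.27).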

How the results depend on the processing

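The count of the 10 genes with an unadjusted p under 0.05 here takes in Ripk2 and Nod2 from a fit without the filter. In Conv + OM(HFD) against Conv + PBS mice it was 1, and it was 0 with only the groups compared in the fit, with the methods' t-test, with the exact permutation test and without mice 1 and 25 (leaving these out, and the other probes of Tlr4 and Ly96, were chosen after seeing the data). In Conv + LM against Conv + PBS mice it was 2, and it was 1 with normexp background correction, quantile normalization, the authors' values, probes detected on all arrays only, every probe that passed the filter on its own (a fit without Ripk2, which had p under 0.05 when all probes were fitted), and under the same 4 settings. Between the inocula it was 0. Leaving out each mouse in turn gave 0 to 2 in all 3 comparisons. No gene of the 10 passed after adjustment under any setting. Over all genes, the count between the inocula was 551, and it was 872 with slide as a block and 831 with every probe on its own. The relations across mice that passed numbered 6 with quantile normalization and 0 without the 2 farthest mice.

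Log2 differences reversed in sign as follows, beside the within-slide values in the report. In Conv + OM(HFD) against Conv + PBS mice, Cd14 was -0.0128 with normexp, -0.0185 with quantile normalization, -0.0605 with the authors' values and -0.0147 as the mean of its probes. Normexp gave 0.0446 for Ripk2 and 0.0376 for Tlr2. Tlr4 was 0.0115 as the mean of its probes and 0.1744 on the RefSeq probe, Ly96 was -0.0861 on the probe without the repeat, Lbp was -0.0513 within slide 2, and Myd88 was 0.0061 with array weights. Without mice 1 and 25, Nod1 was 0.0044 and Myd88 0.0115 in that comparison, Nod1 0.0005 and Tlr2 0.0462 in Conv + LM against Conv + PBS, and Tlr2 -0.2310 and Tlr4 -0.0319 between the inocula. There, array weights gave -0.0062 for Tlr4 and normexp -0.0084 for Myd88.

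Leaving out each mouse in turn reversed some of these values. In Conv + OM(HFD) against Conv + PBS mice, Nod1 ran from -0.1414 to 0.0667, Ripk2 from -0.3266 to 0.0121, Tlr2 from -0.4521 to 0.2276 and Cd14 from -0.2213 to 0.2996. In Conv + LM against Conv + PBS mice, Nod1 ran from -0.1935 to 0.0005, Tlr2 from -0.3174 to 0.0462 and Lbp from -0.0691 to 0.1664. Between the inocula, Tlr2 ran from -0.2310 to 0.3785, Tlr4 from -0.0319 to 0.0767 and Myd88 from -0.0650 to 0.1600. The causes were not tested. Of 813 single values recomputed, 43 reversed (a within-slide value was counted only where the difference in all mice had an unadjusted p under 0.05), 28 lost and 6 gained an unadjusted p under 0.05. No paired analysis was possible because no mouse number occurs in more than 1 group. With 5 or 6 arrays a group, differences below about the intervals given could not be told from 0.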
